A study of Mus musculus with 3 samples.

Results

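The IGF1 axis and its binding proteins were followed through a droplet single cell RNA-seq table as 7 genes, which were chosen by name: *Igf1* (the ligand), *Igf1r* (its receptor), *Irs1* and *Irs2* (adaptors below the receptor), and *Igfbp2*, *Igfbp5* and *Igfbp7* (secreted binding proteins). All 7 had a row among the 9781 gene rows used. Their levels were described across marker-defined cell classes, across the clusters inside those classes, and across the 3 groups of cell barcodes in the table.

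Mouse tissue of 3 ages was sequenced, with 1 library each: the urogenital sinus of E18.5 males, an embryonic structure that gives rise to the prostate, P14 prostate, and P35 prostate, all labelled with a normal disease state. According to the methods of the study the mice were kept on a mixed background of C57BL/6 and 129S1/SvImJ, the tissue was dissociated with collagenase and TrypLE, and reads were counted on mm10 with transgene sequences added. The labels give no genotype and no number of animals for a library. Barcodes end in 1, 2 or 3, no label ties an ending to a sample, and the endings are therefore called barcode sets 1, 2 and 3, with no age attached to any of them. The cell number of the first set equals one that the paper gives for a sample, those of the others equal none, and no assignment was made from this.

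Insulin-like growth factor 1 is a secreted peptide that binds the receptor tyrosine kinase encoded by *Igf1r*. The active receptor phosphorylates insulin receptor substrates, which recruit phosphatidylinositol 3-kinase and lead to AKT and mTOR. Binding proteins hold IGFs in the extracellular space, where they prolong their life or limit their access to the receptor, and proteases release the ligand again. In many organs IGF1 is made by stromal cells and acts on neighbouring cells as well as through the circulation.

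By RefSeq positions on GRCm38.p6 (the assembly of mm10), *Igf1* lies on chromosome 10 (87858265 to 87937047), *Igf1r* on chromosome 7 (67952257 to 68233668), *Irs1* on chromosome 1 (82233105 to 82291439), *Irs2* on chromosome 8 (10984681 to 11008929) and *Igfbp7* on chromosome 5 (77349240 to 77408045). *Igfbp2* (72824480 to 72852474, plus strand) and *Igfbp5* (72858065 to 72874865, minus strand) are neighbours on chromosome 1. They point towards each other with 5590 bases and 0 annotated genes between them. The *Igfbp7* gene overlaps *Polr2b*, on the opposite strand, by 89 bases, and *Irs2* overlaps the noncoding gene 9530052E02Rik, also on the opposite strand, by 1080 bases. Because the levels below include a broadly detected receptor and a pair of neighbouring genes, the 250 bases before the start of *Igf1r* (chr7:67952007-67952256, plus strand), *Igfbp2* (chr1:72824230-72824479, plus strand, the first of 2 starts) and *Igfbp5* (chr1:72874866-72875115, minus strand) are shown 5′ to 3′ from RefSeq, with CpG dinucleotides in capitals.
Igf1r: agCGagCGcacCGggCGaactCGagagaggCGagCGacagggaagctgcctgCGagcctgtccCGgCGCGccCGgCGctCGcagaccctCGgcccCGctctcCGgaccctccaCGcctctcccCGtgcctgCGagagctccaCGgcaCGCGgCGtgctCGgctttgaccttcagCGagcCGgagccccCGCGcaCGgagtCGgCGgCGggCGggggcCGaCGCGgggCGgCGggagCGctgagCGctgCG
Igfbp2: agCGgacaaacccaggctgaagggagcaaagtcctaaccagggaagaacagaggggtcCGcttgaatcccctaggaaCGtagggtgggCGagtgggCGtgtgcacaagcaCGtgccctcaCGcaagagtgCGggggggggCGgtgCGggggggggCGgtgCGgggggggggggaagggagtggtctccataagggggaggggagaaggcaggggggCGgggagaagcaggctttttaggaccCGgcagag
Igfbp5: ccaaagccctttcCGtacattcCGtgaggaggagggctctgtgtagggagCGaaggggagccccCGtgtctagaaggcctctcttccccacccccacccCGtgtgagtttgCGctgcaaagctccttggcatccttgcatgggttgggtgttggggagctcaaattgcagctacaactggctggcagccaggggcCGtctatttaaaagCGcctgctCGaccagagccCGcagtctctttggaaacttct
These windows held 42 CpG for *Igf1r*, 14 for *Igfbp2* and 10 for *Igfbp5*, against a median of 6 over 32841 promoter windows of this length. Fewer CpG than in the *Igf1r* window were found in 99.1% of all windows, and fewer than in the *Igfbp5* window in 62.2%. The hexamer GGGCGG, searched on both strands, occurred 2 times before *Igf1r*, 3 times before *Igfbp2* and 0 times before *Igfbp5*, and 32.7% of all windows held it. TATAAA was in 0 of the 3 windows shown and in 12.4% of all windows. These letter matches describe the windows and were not tested for binding.

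Sets 1, 2 and 3 held 766, 5350 and 8457 cells, of which 97 cells of set 3 had fewer than 200 genes and were left out. Set 1 stood apart in depth, with a median of 19357 UMIs (unique molecular identifiers, counted molecules) a cell against 1738 and 1788, and held 12087 UMIs of a reporter row named *EGFP* against 0 and 0 in the other sets. Sets shared 1 barcode (1 and 2), 0 (1 and 3) and 13 (2 and 3). Levels are given as UMIs per 1000000 UMIs (CPM) summed over the cells of a class, with exact Poisson 95% intervals in parentheses, and differences as log2 ratios of CPM, whose exact 95% intervals treat the pair of UMI sums as a binomial split. Cells are not replicates and each set has no second library, so intervals cover counting error only, no p-value is given, and a difference between sets compares single libraries. Clustering, with the 7 genes kept out of the features, gave clusters 0 to 13, of which 7 and 11 stayed unnamed and the others were named by their markers.

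**Figure D1:**
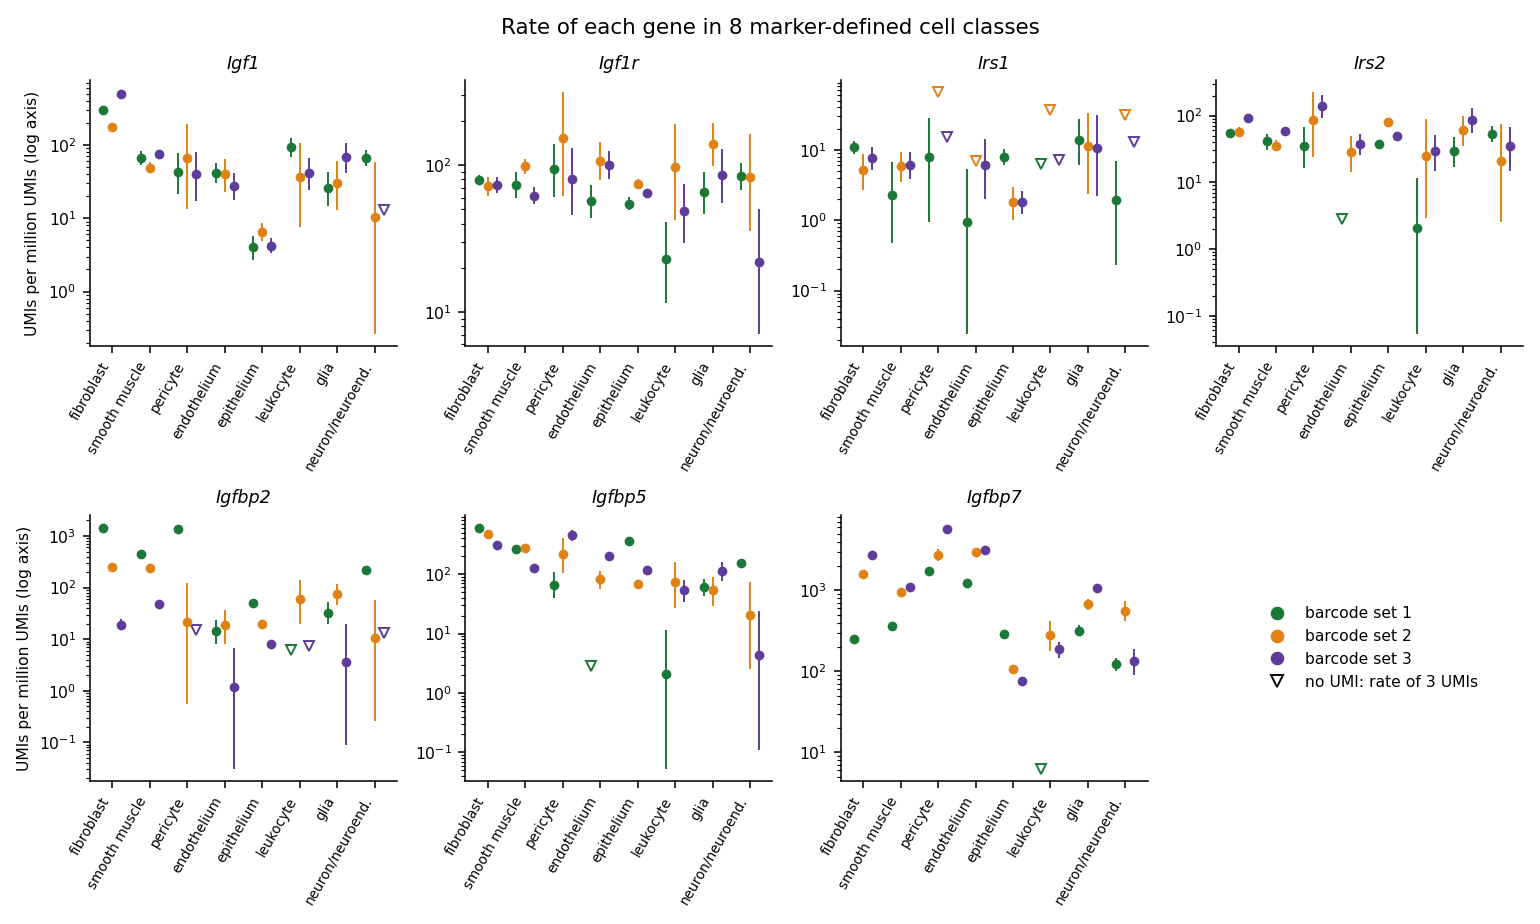
CPM (log axis) of each gene in 8 marker-defined classes, with 1 point per barcode set and exact 95% Poisson bars. Open triangles mark the rate that 3 UMIs would give in a group with no UMI. *Igf1* is highest in fibroblast-like cells of every set, *Igf1r* lies between 21.7 and 153 CPM throughout, and the sets are stacked in opposite order for *Igfbp2* and *Igfbp7* in fibroblast-like cells.

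*Igf1*, the ligand, was highest in fibroblast-like cells and lowest among the larger classes in epithelium-like cells. Its level in fibroblast-like cells was 297 CPM (285 to 309.7) in set 1, 177 (161 to 194) in set 2 and 497 (475 to 520.2) in set 3. Epithelium-like cells held 4.04 (2.71 to 5.8), 6.5 (4.88 to 8.48) and 4.22 CPM (3.3 to 5.32), from 29, 54 and 72 UMIs. The log2 ratio of epithelium-like over fibroblast-like cells was therefore -6.20 (-6.78 to -5.67), -4.77 (-5.20 to -4.36) and -6.88 (-7.24 to -6.54), and the intervals of the classes lay far apart in each set. Other processing moved these values to between -6.97 and -5.36 in set 1, -5.98 and -3.98 in set 2, and -7.63 and -5.93 in set 3.

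For *Igf1*, smooth muscle-like cells came between, at 67.1 (53.8 to 82.6), 49.0 (41.5 to 57.5) and 75.7 CPM (67.0 to 85.2), with log2 ratios to fibroblast-like cells of -2.15, -1.85 and -2.72, which moved to between -2.55 and -0.54 in set 2 and to as low as -3.30 in set 3 under other processing. Endothelium-like cells stood at 41.8, 39.7 and 27.9 CPM and leukocyte-like cells at 93.8, 36.6 and 41.1 CPM. The middle classes had intervals that overlapped those of their neighbours, and the clear steps were fibroblast-like cells above the next class in sets 1 and 3 and epithelium-like cells below the class before them, again in sets 1 and 3. In set 2 the fibroblast-like interval overlapped that of 29 pericyte-like cells, whose 65.4 CPM (13.5 to 191) rested on 3 UMIs.

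Leukocyte-like cells were also split by whether a cell held a UMI of *C1qa*, *C1qb* or *C1qc*, complement genes that mark macrophages. In set 1, 25 cells with such a UMI held 43 *Igf1* UMIs (127 CPM, 91.9 to 171) and 13 cells without one held 2 (14.2 CPM, 1.72 to 51.2), a log2 ratio of 3.16 (1.22 to 6.26). In set 3 the split was 17 UMIs in 95 cells (72.2 CPM, 42.0 to 116) against 0 UMIs in 82 cells, a log2 ratio of 2.09 with the empty group set to 3 UMIs, with a lower limit of 1.64. Set 2 had only 17 and 8 such cells with 2 and 1 UMIs, too few for a ratio.

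The share of cells with an *Igf1* UMI follows depth, and was compared after thinning each cell to 900 UMIs. In fibroblast-like cells it was 20.1%, 13.7% and 27.5% in sets 1, 2 and 3 after thinning, and 75.2%, 19.3% and 34.0% before it. Epithelium-like cells had 0.685% (1 of 146 cells), 0.28% (4 of 1429) and 0.327% (9 of 2752) after thinning, and 10.2%, 2.99% and 1.83% before. Endothelium-like cells, used as a class for comparison, had 0% (0 of 37 cells, upper bound 9.49%), 2.25% (0.273 to 7.88) and 3.37% (1.25 to 7.19) after thinning. Median depths were 42599, 4099 and 3560.5 UMIs in epithelium-like and 20338, 3261.5 and 3118 in endothelium-like cells. The epithelium-like share lay inside the endothelium-like interval in sets 1 and 2 and below it in set 3. In set 1 the endothelium-like cells held 44 *Igf1* UMIs (41.8 CPM, in 14 of 38 cells), 19.9 CPM of *Col1a2* and 0 CPM of *Lum*. Of 12 fibroblast markers, 8 had a UMI there, and their sum was 544 CPM against 166 CPM in epithelium-like cells of that set. The part of free RNA in either class was not tested.

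*Igf1r*, the receptor kinase, was found at similar levels in stroma and epithelium. In fibroblast-like cells its level was 79.7 (73.4 to 86.4), 72.0 (62.0 to 83.2) and 73.5 CPM (65.1 to 82.7), and epithelium-like cells 54.7 (49.5 to 60.4), 74.0 (68.3 to 80.1) and 64.9 CPM (61.1 to 68.9). The log2 ratio of epithelium-like over fibroblast-like cells was -0.54 (-0.73 to -0.36) in set 1, where the interval excluded 0, and 0.04 (-0.20 to 0.29) and -0.18 (-0.37 to 0.02) in sets 2 and 3, where it did not. A difference of 2-fold between these classes lay outside all 3 intervals.

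Endothelium-like cells held 57.0, 107 and 101 CPM of *Igf1r*, a log2 ratio to fibroblast-like cells of -0.48 (-0.89 to -0.10), 0.58 (0.08 to 1.05) and 0.46 (0.08 to 0.81), so that set 1 differed in sign from sets 2 and 3. Smooth muscle-like cells held 73.2, 98.0 and 62.1 CPM. In set 1, leukocyte-like cells were lowest at 22.9 CPM (11.4 to 41.0), separated from epithelium-like cells above them. Elsewhere in the order each class overlapped its neighbour. After thinning to 900 UMIs, 7.81%, 6.34% and 6.22% of fibroblast-like and 4.11%, 6.65% and 4.91% of epithelium-like cells had a UMI, against 70.8%, 9.99% and 9.9%, and 72.8%, 29.6% and 26.4%, at their own depth.

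**Figure D2:**
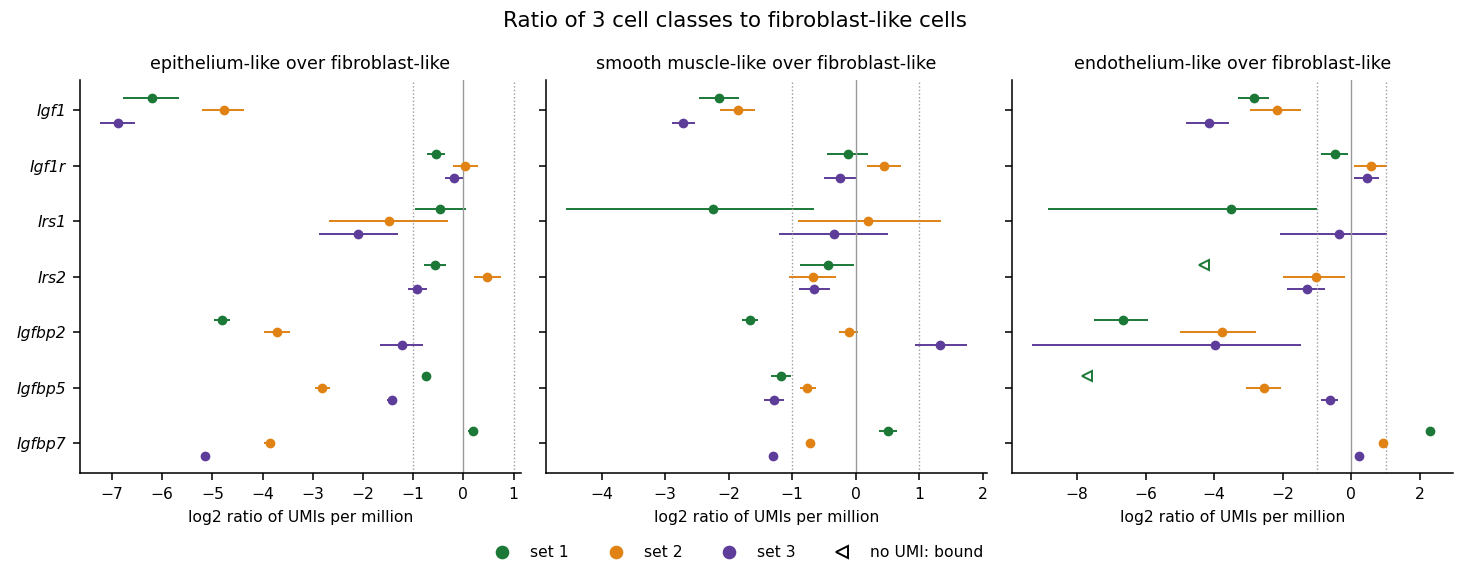
Log2 ratio of CPM in epithelium-like, smooth muscle-like and endothelium-like cells over fibroblast-like cells (x axis) for each gene, with 1 point per barcode set and exact 95% intervals. Dotted lines mark 2-fold differences and open triangles mark bounds from a class with no UMI. *Igf1* lies left of the 2-fold line in all panels and sets, while *Igfbp7* lies right of 0 for endothelium-like cells.

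*Irs1* and *Irs2*, the insulin receptor substrates, differed in how much of them could be seen. *Irs1* was sparse, with 177, 54 and 91 UMIs in all kept cells of sets 1, 2 and 3. Fibroblast-like cells held 10.9 (8.64 to 13.5), 5.09 (2.71 to 8.7) and 7.73 CPM (5.17 to 11.1) and epithelium-like cells 7.94 (6.01 to 10.3), 1.81 (1.01 to 2.98) and 1.82 CPM (1.24 to 2.58). Their log2 ratio was -0.46 (-0.97 to 0.05), -1.49 (-2.67 to -0.30) and -2.09 (-2.87 to -1.31), and thinning to 900 UMIs left 1 epithelium-like UMI in each of sets 2 and 3, with ratios of -2.98 and -4.11. No *Irs1* UMI was found in leukocyte-like cells, where 3 UMIs would have given 6.26, 36.6 and 7.26 CPM, so that levels like those of fibroblast-like cells were not detectable in set 2 at this depth.

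*Irs2* stood at 55.6 (50.4 to 61.3), 56.7 (47.9 to 66.8) and 92.2 CPM (82.7 to 102) in fibroblast-like cells. In epithelium-like cells it stood at 37.6 (33.3 to 42.4), 78.9 (72.9 to 85.1) and 48.7 CPM (45.5 to 52.2). Epithelium-like cells were thus lower in sets 1 and 3, with log2 ratios of -0.56 (-0.79 to -0.34) and -0.92 (-1.10 to -0.73), and higher in set 2, at 0.47 (0.21 to 0.74). The epithelium-like cells of set 1 came almost all from clusters 4 and 10, while sets 2 and 3 both drew on clusters 3, 4, 5 and 10. In set 2 clusters 3 and 5, which held 3 and 0 cells of set 1, stood at 79 (64.6 to 95.7) and 104 CPM (93 to 116), and cluster 4 at 55.9 CPM (48.4 to 64.3). In set 3 clusters 3, 5 and 4 were lower, with upper limits of 68.5, 79.4 and 41.3 CPM, although the intervals of cluster 3 overlapped. These limits lay below the fibroblast-like interval of set 3. The part of cluster make-up in the change of sign was not tested. Endothelium-like cells held 0 *Irs2* UMIs in set 1 (3 UMIs would be 2.85 CPM) and 28.0 and 37.6 CPM in sets 2 and 3, below fibroblast-like cells in each set. In this class epithelium markers summed to 337, 1663 and 2690.1 CPM in sets 1, 2 and 3, fibroblast markers to 544, 1962 and 1236 CPM, and smooth muscle markers to 799, 4842 and 1710 CPM. Their part in the difference was not tested. Pericyte-like cells of set 3 reached 141 CPM (93.5 to 203) from 28 UMIs, and overlapped fibroblast-like cells.

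*Igfbp2*, a binding protein found in many fetal tissues, was highest in set 1 in fibroblast-like and pericyte-like cells, whose intervals overlapped. In set 3 it was nearly absent from fibroblast-like cells. Their level was 1432 CPM (1405 to 1459.8) in set 1, 254 (235 to 274) in set 2 and 19.2 (15 to 24.2) in set 3, from 10660, 649 and 72 UMIs. The log2 ratio of set 3 over set 1 in these cells was -6.22 (-6.58 to -5.89), and that of set 2 over set 1 was -2.50 (-2.61 to -2.38). The class was not made of like cells in all sets: at resolution 1.0 a fibroblast-like cluster led by *Tmem119*, *EGFP*, *Sfrp2*, *Col26a1* and *Col9a2* held 202 cells of set 1 against 41 and 43 of sets 2 and 3, and with no integration 478 cells of set 1, most of them from this class, formed an unnamed cluster with no cell of the other sets. Differences between sets in this class therefore cannot be told apart from its make-up. Thinned to 900 UMIs a cell, 59.9% (54.8 to 64.8), 16.2% (14.3 to 18.2) and 1.83% (1.32 to 2.48) of fibroblast-like cells had a UMI, and the order of the sets was the same at equal depth. At own depth the shares were 91.7%, 22.6% and 2.26%.

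Smooth muscle-like cells held 452 (416 to 489.8), 235 (218 to 253) and 48.2 CPM (41.3 to 56.0) of *Igfbp2*. They were below fibroblast-like cells in set 1 (log2 ratio -1.66, -1.79 to -1.54), level with them in set 2 (-0.11, -0.27 to 0.04) and above them in set 3 (1.33, 0.93 to 1.75, or 0.69 after thinning to 900 UMIs). The class was not alike in all sets: smooth muscle markers summed to 7121, 28684 and 28184 CPM in it, fibroblast markers to 6029.6, 5474 and 3528 CPM, and erythroid markers to 6981, 58.1 and 8.87 CPM, and their part in the difference was not tested. In pericyte-like cells, 11 cells of set 1 held 341 UMIs (1340.4 CPM, 1202 to 1490.5), 29 cells of set 2 held 1 and 127 cells of set 3 held 0. The log2 ratio of set 3 over set 1 was -6.47 with the empty class set to 3 UMIs, with an upper limit of -6.17. Pericyte-like cells lost their name at resolution 1.0 and with no integration, where their cluster held 2 cells of set 1, and they carried 6273, 7609 and 2754 CPM of fibroblast markers in sets 1, 2 and 3.

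Epithelium-like cells held 51.3 (46.2 to 56.8), 19.4 (16.5 to 22.6) and 8.15 CPM (6.85 to 9.62) of *Igfbp2*, with log2 ratios to fibroblast-like cells of -4.80 (-4.96 to -4.65), -3.71 (-3.97 to -3.46) and -1.23 (-1.66 to -0.80). Thinning to 900 UMIs, which left 3 epithelium-like UMIs in set 1, moved the first of these to -6.04, and in set 3 the 88 cells of epithelium-like cluster 10 held 80 of the 139 UMIs. The thinned share of epithelium-like cells with a UMI was 2.05%, 1.47% and 0.69% (40.8%, 7.93% and 2.22% at own depth). Leukocyte-like cells, taken as cells with little of these binding proteins, had 0% (0 of 38, upper bound 9.25%), 4.35% (1 of 23) and 0% (0 of 168, upper bound 2.17%), at median depths of 10313, 2027 and 2003 UMIs. The few reference cells left these thinned shares unresolved. In set 1 the levels were further apart, at 51.3 CPM (46.2 to 56.8) in epithelium-like against 0 CPM (0 to 7.69) in leukocyte-like cells, and the own-depth shares were 40.8% and 0%. In set 2 the reference was itself mixed, since its 25 cells held 4147 CPM of leukocyte markers beside 7685 CPM of smooth muscle, 3806 CPM of epithelium and 1719.9 CPM of fibroblast markers, while leukocyte markers summed to 16975 and 13100 CPM in sets 1 and 3.

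*Igfbp5*, which binds IGFs and components of the extracellular matrix, was higher in fibroblast-like than in epithelium-like cells of every set. In set 2 the epithelium-like level was only 14.3% (12.9 to 15.8) of the fibroblast-like one, and in set 3 it differed between epithelium-like clusters, as given below. Fibroblast-like cells held 602 (584 to 619.6), 473 (447 to 501) and 315 CPM (297 to 333), and smooth muscle-like cells 267, 280.1 and 129 CPM. Epithelium-like cells held 358 (344 to 372), 67.5 (62.1 to 73.4) and 117 CPM (112 to 122), so that their log2 ratio to fibroblast-like cells was -0.75 (-0.82 to -0.68), -2.81 (-2.96 to -2.66) and -1.43 (-1.53 to -1.32). Pericyte-like cells of set 3 were the highest of all classes at 447 CPM (359 to 550.4), separated from fibroblast-like cells, whereas in set 1 pericyte-like cells held 66.8 CPM (38.9 to 107).

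Endothelium-like cells held 0 *Igfbp5* UMIs in set 1, where 3 UMIs would be 2.85 CPM, and 81.8 (56.9 to 114) and 204 CPM (174 to 237) in sets 2 and 3. Markers of epithelium, fibroblasts and smooth muscle were also higher in this class in sets 2 and 3, as given for *Irs2*, and their part was not tested. After thinning, 24% (17.3 to 31.7), 6.51% (5.28 to 7.91) and 12.6% (11.4 to 13.9) of epithelium-like cells had an *Igfbp5* UMI, and 87.8%, 21.6% and 33.2% before. Leukocyte-like cells had 0% (upper bound 9.25%), 8.7% (1.07 to 28.0) and 2.98% (0.973 to 6.81). Epithelium-like cells were above this reference in sets 1 and 3, and could not be set apart from it in set 2, where it rested on 2 of 23 cells.

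*Igfbp7*, a secreted protein that binds IGFs and insulin weakly and is known from blood vessel walls, was highest in the vascular classes. Pericyte-like cells held 1741 (1583 to 1911), 2747 (2288 to 3271) and 5689 CPM (5363 to 6031), and endothelium-like cells 1239 (1172 to 1308), 3004 (2842 to 3173) and 3164 CPM (3043 to 3288). The order of these classes was pericyte-like first in sets 1 and 3, with log2 ratios of 0.49 (0.33 to 0.65) and 0.85 (0.74 to 0.95), and not resolved in set 2 at -0.13 (-0.40 to 0.14). A UMI was found in 100% of the pericyte-like cells of sets 1 and 2 and in 98.4% of those of set 3.

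Fibroblast-like cells held 253 (242 to 265), 1572 (1524 to 1622) and 2691 CPM (2638 to 2744) of *Igfbp7*, a log2 ratio of set 3 over set 1 of 3.41 (3.34 to 3.48). *Igfbp2* and *Igfbp7* thus ran through the sets in opposite order in this class, whose make-up differs between sets as given for *Igfbp2*. Their thinned share with an *Igfbp7* UMI was 15.6%, 71.9% and 86.6%, and 69.0%, 82.7% and 92.6% at own depth. Smooth muscle-like (359, 956 and 1090.4 CPM), glia-like (319, 675 and 1062 CPM), pericyte-like and endothelium-like cells also had their lowest level in set 1 and their highest in set 3. Endothelium-like cells of sets 2 and 3 could not be separated (log2 ratio 0.07, -0.02 to 0.17). Fibroblast markers summed to 1769, 6404 and 5512 CPM in glia-like and 544, 1962 and 1236 CPM in endothelium-like cells. They were thus lowest in set 1 there, and lowest in set 3 in pericyte-like and smooth muscle-like cells. The part of RNA from other classes in these levels was not tested.

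Epithelium-like cells had the reverse order, at 288 (275 to 300.5), 108 (101 to 115) and 76.5 CPM (72.4 to 80.7). Their log2 ratio to fibroblast-like cells was 0.19 (0.10 to 0.28) in set 1, -3.86 (-3.97 to -3.76) in set 2 and -5.14 (-5.22 to -5.05) in set 3. The thinned share with a UMI was 17.8% (12 to 25), 8.19% (6.82 to 9.73) and 5.78% (4.94 to 6.72), and 89.8%, 26.4% and 18.2% at own depth. Among leukocyte-like cells it was 0% (upper bound 9.25%), 13.0% (2.78 to 33.6) and 5.95% (2.89 to 10.7). The epithelium-like share was inside the interval of this reference in sets 2 and 3 and above it in set 1. Leukocyte-like cells of set 1 held 0 *Igfbp7*, 0 *Igfbp2* and 1 *Igfbp5* UMIs in 38 cells.

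**Figure D3:**
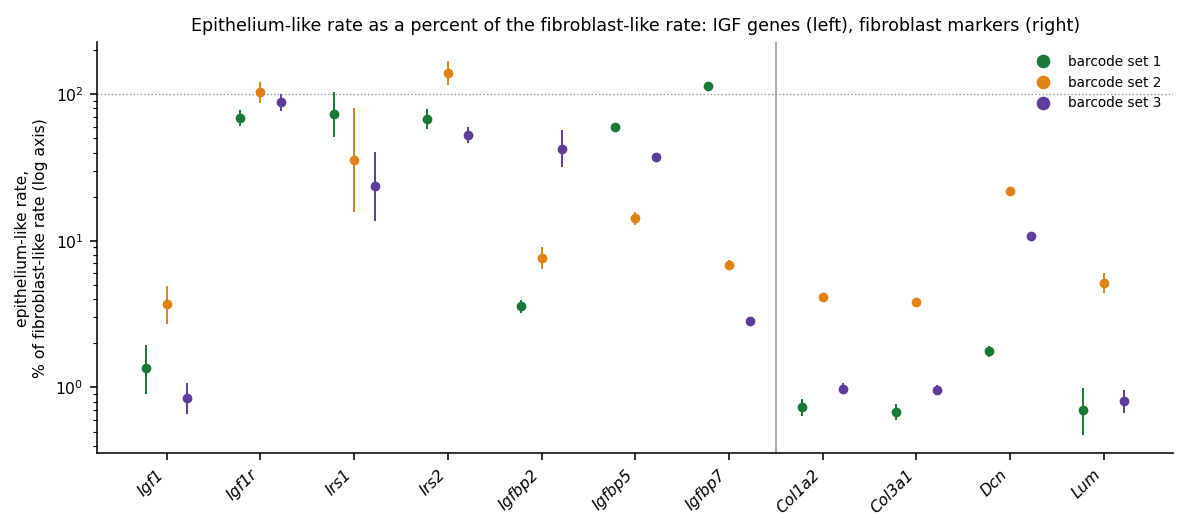
Level in epithelium-like cells as a percent of that in fibroblast-like cells (log axis) for the IGF genes and, right of the line, 4 collagen and matrix genes that mark fibroblasts. Points are barcode sets with exact 95% intervals. In set 2, *Igf1*, *Igfbp2*, *Igfbp5* and *Igfbp7* sit at 3.68%, 7.63%, 14.3% and 6.87%, near or within the 3.81% to 22% that the matrix genes span. *Igfbp2* at 3.58% and 42.5% and *Igfbp5* at 59.4% and 37.1% in sets 1 and 3, and *Igfbp7* at 114% in set 1, lie above the matrix genes of those sets. Of the 139 *Igfbp2* UMIs of set 3, 80 came from 88 cells of cluster 10.

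UMIs of fibroblast markers were counted among epithelium-like cells. All 12 markers had a UMI there in every set, and their summed level was 166, 1562 and 894 CPM against 15803, 17058 and 18706 CPM in fibroblast-like cells. In leukocyte-like cells 7, 9 and 12 of the 12 markers had a UMI and the sums were 39.6, 1719.9 and 866 CPM. Relative to fibroblast-like cells, epithelium-like cells held 0.732%, 4.14% and 0.979% of *Col1a2* (a chain of type I collagen) and 1.76%, 22% and 10.8% of *Dcn* (decorin, a matrix proteoglycan). *Igf1* stood at 1.36% (0.908 to 1.96), 3.68% (2.72 to 4.88) and 0.849% (0.662 to 1.07) on the same scale. *Igf1r* stood at 68.7%, 103% and 88.3%, far above any of these. The part of free RNA or of mixed droplets in the low values was not tested.

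Across the 7 genes, 0 exceeded their fibroblast-like level by at least 2-fold in epithelium-like cells with an interval off 0 in any set, where 15.8%, 15.7% and 21.8% of all rows with at least 20 UMIs in sets 1, 2 and 3 were. In the other direction 2, 5 and 5 of 7 were at least 2-fold higher in fibroblast-like cells, beside 24.7%, 18.4% and 20.6% of all rows. These were *Igf1* and *Igfbp2* in set 1, joined by *Irs1*, *Igfbp5* and *Igfbp7* in sets 2 and 3. In set 3, *Igfbp2* fell short of 2-fold with no integration (-0.96) and *Igfbp5* after thinning to 900 UMIs (-0.99), which left 4 of 7. The median log2 ratio of the 7 genes was -0.56, -2.81 and -1.43, against -0.17, -0.03 and 0.19 over all rows. The genes were chosen with earlier results of these data in view, and the counts are a description.

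**Figure D4:**
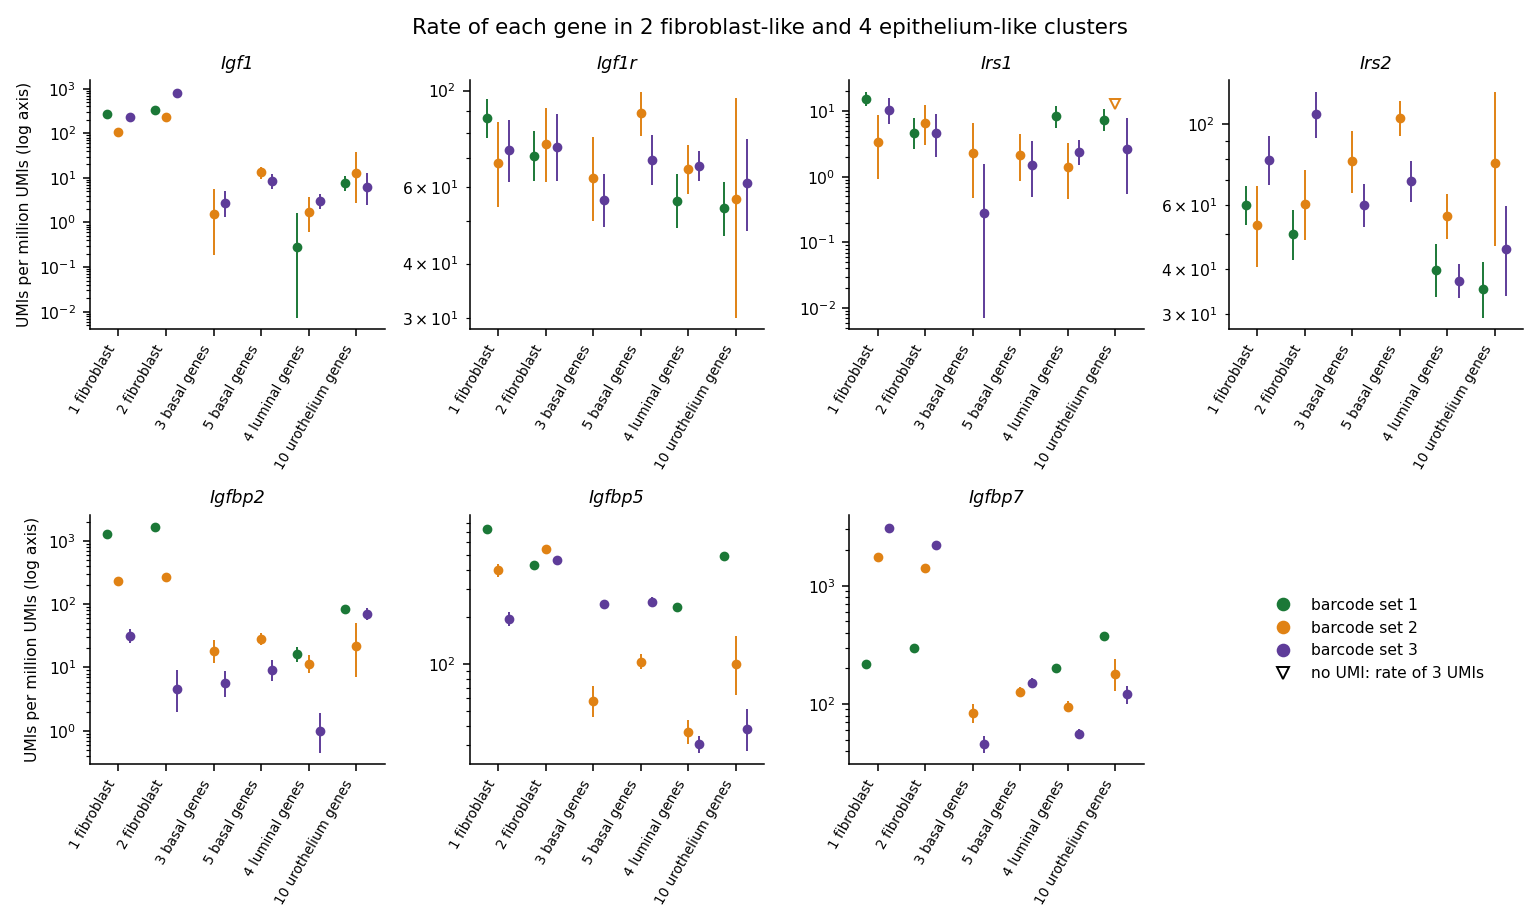
CPM (log axis) of each gene in 2 fibroblast-like and 4 epithelium-like clusters, for groups of at least 10 cells, with 1 point per barcode set, exact 95% Poisson bars and an open triangle at the rate of 3 UMIs where no UMI was found. *Igfbp5* of set 3 is near 240.1 to 249 CPM in clusters 3 and 5 and 30.5 CPM in cluster 4, and *Igfbp2* of set 3 stands out in cluster 10.

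Fibroblast-like cells came from cluster 1 (led by *Lamc3*, *Fgf21*, *Mmp2*, *Col26a1* and *Tmem119*) and cluster 2 (led by *Dpt*, *Ptx3*, *Lum*, *Sult1e1* and *Ugdh*). *Igf1* was higher in cluster 2 in every set, at 329.7, 237 and 816 CPM against 273, 107 and 226 CPM, and the log2 ratio was 0.27 (0.15 to 0.40), 1.14 (0.84 to 1.45) and 1.85 (1.70 to 2.01). *Igfbp5* was lower in cluster 2 in set 1 (-0.77, -0.87 to -0.68) and higher in sets 2 and 3 (0.45, 0.28 to 0.62, and 1.24, 1.06 to 1.42). *Igfbp7* had the opposite signs, at 0.46, -0.29 and -0.50, with all 3 intervals off 0. *Igfbp2* was higher in cluster 2 in set 1 (0.39, 0.33 to 0.44) and not clearly so in set 2 (0.23, -0.00 to 0.46). In set 3 it was lower there, with 8 UMIs (4.64 CPM) against 64 in cluster 1 (31.5 CPM), a log2 ratio of -2.76 (-4.04 to -1.70). For *Igf1r* the ratio was -0.29 (-0.53 to -0.04), 0.15 (-0.28 to 0.59) and 0.03 (-0.33 to 0.38).

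Epithelium-like cells came from clusters 3 and 5, which carried 6 of 6 basal markers with a row, cluster 4, which carried 7 of 7 luminal markers, and cluster 10, which carried 4 of 5 urothelium markers and 6 of 7 luminal ones. The lists were not exclusive, since clusters 3 and 5 also carried 2 and 4 of the luminal markers and clusters 4 and 10 carried 3 and 4 of the basal ones. Clusters 3 and 5 held only 3 and 0 cells of set 1, so basal and luminal clusters were compared in sets 2 and 3. *Igfbp5* was higher in the basal clusters, and set 2 gave a log2 ratio over cluster 4 of 1.29 (1.01 to 1.59) while set 3 gave 3.0 (2.82 to 3.19). In set 2, clusters 3 and 5 differed, at 57.7 (45.5 to 72.3) and 103 CPM (92.1 to 115) against 36.6 CPM (30.6 to 43.5) in cluster 4, so that cluster 3 alone was less than 2-fold higher. In set 3, clusters 3 and 5 held 240.1 (224 to 257) and 249 CPM (232 to 266) and cluster 4 held 30.5 CPM (27.0 to 34.3). *Irs2* was higher in the basal clusters in both sets by nearly the same amount, 0.79 (0.54 to 1.04) and 0.80 (0.59 to 1.01). *Igf1r* stood at 0.30 (0.06 to 0.55) and -0.11 (-0.29 to 0.07), within 2-fold both times, and in set 2 was at 88.7 CPM in cluster 5 and 63.1 CPM in cluster 3 against 65.9 CPM in cluster 4.

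Between the basal clusters, cluster 5 (led by *Lamb3*, *Pkp1*, *Sfn*, *Serpinb5* and *Ccdc3*) held more *Igf1* than cluster 3 (led by *Lgals7*, *Serpinb5*, *Fmo6*, *Sfn* and *Cp*), at 13.3 against 1.52 CPM in set 2 (43 and 2 UMIs) and 8.53 against 2.8 CPM in set 3 (28 and 10 UMIs). The log2 ratio was 3.13 (1.19 to 6.22) and 1.61 (0.52 to 2.81). At own depth 7.48% and 5.39% of cluster 5 cells had an *Igf1* UMI, and after thinning to 900 UMIs 0.454% (2 cells) and 0.27% (1 cell), against 0% (0 of 532 cells) and 0.295% in cluster 3. Thinned to 1200 UMIs the shares were 1.59% (0.64 to 3.24) and 1.62% (0.596 to 3.49) in cluster 5, against 0% (0 of 508 cells, upper bound 0.724%) and 0.394% (0.128 to 0.916) in cluster 3. *Igfbp7* was also higher in cluster 5, by 0.61 (0.30 to 0.92) and 1.72 (1.46 to 1.99). Median depth was 6678 UMIs in cluster 5 and 2260 in cluster 3, and the part of free RNA in these differences was not tested.

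Cluster 10 (led by *Wfdc15b*, *Folr1*, *Sptssb*, *Cd52* and *Ivl*) held more *Igfbp2* than cluster 4 (led by *Clca1*, *Wfdc3*, *Cldn3*, *Cyp2f2* and *Tspan1*) in sets 1 and 3. Its leading genes were divided at resolution 1.0 between a cluster led by *Sptssb*, *Ivl* and *Upk1a*, with 83, 10 and 32 cells of sets 1, 2 and 3, and one led by *Wfdc15b*, *Folr1* and *Cd52*, with 0, 28 and 65, so that its values may describe different cells in each set. In set 3 the levels were 70.9 CPM (56.2 to 88.2) and 0.992 CPM (0.454 to 1.88), from 80 and 9 UMIs, a log2 ratio of 6.16 (5.16 to 7.34). In set 1 they were 84.3 (75.1 to 94.3) and 16.4 CPM (12.4 to 21.3), a ratio of 2.36 (1.95 to 2.80), and in set 2, with 5 UMIs in cluster 10, the ratio was 0.93 (-0.77 to 2.27). Cluster 10 alone held 80 of the 139 *Igfbp2* UMIs of epithelium-like cells in set 3, and 70.9 CPM was above the 19.2 CPM of the fibroblast-like cells of that set. *Igfbp7* was higher in cluster 10 in each set, by 0.89 (0.75 to 1.02), 0.91 (0.40 to 1.38) and 1.10 (0.82 to 1.38), and *Igf1r* could not be separated between these clusters (-0.06, -0.22 and -0.14, each interval holding 0).

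A wider list of 49 genes of the IGF pathway, from ligands and proteases to AKT, FOXO and mTOR, had 29 genes with a row. Of 28, 27 and 28 with at least 20 UMIs, 12, 11 and 14 were at least 2-fold higher on the fibroblast side and 1, 1 and 0 on the epithelium side, with median log2 ratios of -0.55, -0.53 and -1.10. Over all rows the fibroblast side held 24.7%, 18.4% and 20.6% and the epithelium side 15.8%, 15.7% and 21.8%, with medians of -0.17, -0.03 and 0.19. Without the 7 genes the counts were 10 of 21, 6 of 20 and 9 of 21 in fibroblast-like cells, with medians of -0.28, -0.50 and -0.74. Besides *Igf1* and *Igfbp2*, the genes higher in fibroblast-like cells in all 3 sets included *Igf2*, *Pappa*, *Pappa2* and *Akt2*.

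*Igf2*, the other IGF ligand and an imprinted fetal growth factor, was detected in fibroblast-like cells at 295, 23.9 and 10.9 CPM. Epithelium-like cells held 61.6, 0.482 and 0.0586 CPM, from 442, 4 and 1 UMIs. The log2 ratio stood at -2.26 (-2.41 to -2.11), -5.63 (-7.55 to -4.20) and -7.54 (-12.88 to -4.98). *Pappa* and *Pappa2* encode proteases that cut IGF binding proteins. *Pappa* was at 16.4, 29.3 and 26.6 CPM in fibroblast-like against 1.81, 1.69 and 1.35 CPM in epithelium-like cells, and *Pappa2* at 17.7, 11.7 and 15.5 against 0.418, 0.843 and 0.469 CPM. *Akt2*, a kinase that acts below the receptor, had log2 ratios of -1.01, -1.14 and -1.79. In epithelium-like cells *Pik3r3*, a regulatory subunit of phosphatidylinositol 3-kinase, was 2-fold higher in set 1 (1.16, 0.79 to 1.53) and *Igf2bp3*, an RNA-binding protein named for *Igf2* mRNA, in set 2 (2.05, 1.34 to 2.86), and these were the only ones in that direction.

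Levels were also correlated over 35 cluster-by-set groups of at least 20 cells, on log2(CPM + 5), among 6408 genes with at least 200 UMIs. The groups share libraries and depth, and the coefficients describe patterns only. For *Igf1* the closest genes were *Olfml3* (r = 0.88), *Rcn3* (0.85) and *Fkbp7* (0.85). For *Igfbp2* they were *Capn6* (0.87), *Col9a2* (0.83) and *Sfrp2* (0.81), for *Igfbp7* *Camk2n1* (0.85), *Sparcl1* (0.85) and *Ppme1* (0.84), and for *Igfbp5* *Phf13* (0.80) and *Tbx3* (0.73). *Igf1r* came closest to *Armcx5* (0.82), *Eif4g2* (0.79) and *Timp3* (0.77), and *Irs2* to *Map1lc3a* (0.83), *Klhl21* (0.70) and *Gm12840* (0.70). *Irs1* came closest to *Lmo4* (0.78), *Rgma* (0.75) and *Epha7* (0.73), but its levels are close to the 5 CPM added, so these coefficients say little about it.

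Among the 7 genes themselves the highest of the 21 pairwise coefficients was that of *Irs2* with *Igfbp5* (0.69), followed by *Igf1r* with *Igfbp7* (0.59). *Igf1* and *Igf1r*, the ligand and its receptor, had r = 0.13, and the neighbours *Igfbp2* and *Igfbp5* had r = 0.46. *Igfbp2* and *Igfbp7* had r = 0.09. The SD of log2(CPM + 5) over the groups was 0.44 for *Igf1r* and 0.98 for *Irs2*, against 1.77 for *Igf1*, 1.63 for *Igfbp5*, 2.13 for *Igfbp7* and 2.23 for *Igfbp2*. *Irs1* is left out of this, since its levels are close to the 5 CPM added.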

How the data were processed

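Droplet 3' single cell RNA-seq was done on 3 samples with 1 library each. The labels name v3 chemistry and the methods a v2 kit. According to the methods, the authors counted UMIs with Cell Ranger 3.1.0 on mm10 with transgene sequences added, filtered cells and worked in Seurat. The deposited table gives each value as a natural log, ln(1 + 10000 × UMIs / cell total), up to 7.94. Whole UMIs and cell totals were recovered from them: all 11120281 values above 0 lay within 0.05 of a whole UMI (largest distance 9.4e-07).

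The table had 9784 rows and 14573 cells and was held only in part, with 1 row filled for 7365 cells. That row and 2 rows sharing a name were left out. Of the 9781 rows, 8911 had a RefSeq symbol (GRCm38.p6). Rows held 49.4% to 52.7% of all UMIs of a set.

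Cells with at least 200 genes were clustered in Seurat 5.3.0 (R 4.3.3): integration over 20 dimensions on 2000 features without the 7 genes and *EGFP*, 27 S and 33 G2M phase genes regressed out, 30 components, resolution 0.5. A cluster carried a marker found in at least 10% of its cells at 2 times the rate of the median cluster, and took the class with the highest carried share, with at least 3 markers carried, a margin of 0.25 in share over the next list and no other class ahead among its 10 leading genes. This scoring was set after clustering. The 7 genes and all lists were chosen with earlier results of these data known.

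UMIs were summed per class and set in Python 3.11.15 (numpy 2.4.6, scipy 1.17.1). Intervals are exact Poisson, binomial split or Clopper-Pearson at 95%. A class with no UMI was set to 3 UMIs; sums of 1 or 2, planned to be raised to 3 as well, were kept as counted. Ratios needed 10 cells a class. Calls over all rows needed 20 UMIs, 2-fold and an interval off 0. The rule was also run on simulated counts, and the outcome is not reported here. Genes named are the 7, pathway genes past that rule in all sets, the 3 most similar genes for each and the 5 leading genes of clusters described, and a few that this rule names are not reported here. *Dcn* and *Col1a2*, *EGFP* and the pairs of clusters were chosen after values were seen. Scrublet (scanpy 1.11.5) put 3, 0 and 0 cells over its threshold, and no cell was removed. No treatment of free RNA is given in the sources used here, and none was applied. Alternatives were resolution 1.0, no integration, thinning to 900 or 1200 UMIs, leaving out the 5% of cells with the highest doublet score, at least 1000 genes a cell, and a floor of 1 UMI.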

Additional observations from a re-analysis of the deposited data

Results flagged for a closer look

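Log2 ratios that lay on opposite sides of 0 in different barcode sets, with both intervals off 0, were looked at again. For epithelium-like over fibroblast-like cells these were *Irs2*, at 0.47 in set 2 against -0.56 in set 1 and -0.92 in set 3, and *Igfbp7*, at 0.19 in set 1 against -3.86 in set 2 and -5.14 in set 3. For smooth muscle-like over fibroblast-like cells they were *Igfbp2*, at 1.33 in set 3 against -1.66 in set 1, and *Igfbp7*, at 0.51 in set 1 against -0.72 in set 2 and -1.30 in set 3, although the sign in set 1 was lost at resolution 1.0 (-0.01) and after thinning to 900 UMIs (-0.70). For endothelium-like over fibroblast-like cells it was *Igf1r*, at 0.58 in set 2 and 0.46 in set 3 against -0.48 in set 1. With 1 library a set, the difference between sets was not tested in any of these, and set 1 also differs from the others in depth and in the clusters that make up its epithelium-like cells, with 3 and 0 cells in clusters 3 and 5.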

How the results depend on the processing

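No paired analysis was possible because each age had 1 library, no barcode set was assigned to a sample and no result came from a test. For epithelium-like over fibroblast-like cells, 79 recomputed log2 ratios stayed inside the reported interval, 32 moved out of it and 0 of those with an interval off 0 changed sign. The 32 counts of genes at least 2-fold apart stayed within 1.5 times the reported count, and the count of 5 in set 3 became 4 with no integration and after thinning. No integration gave no value for set 1, where fewer than 10 cells were named fibroblast-like, and at least 1000 genes a cell none for set 3.

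Thinned to 900 UMIs, the ratio was -5.36 (set 1) and -5.98 (set 2) for *Igf1*, -0.93 (set 1) for *Igf1r*, -2.98 (set 2) and -4.11 (set 3) for *Irs1*, -6.04 (set 1) for *Igfbp2*, -0.96, -2.47 and -0.99 for *Igfbp5*, and 0.05 (set 1) and -5.05 (set 3) for *Igfbp7*. Without the 5% of cells with the highest doublet score it was -6.97, -5.35 and -7.63 for *Igf1*, -5.29 (set 1) for *Igfbp2*, -0.88 (set 1) and -2.98 (set 2) for *Igfbp5*, and -4.21 (set 2) and -5.40 (set 3) for *Igfbp7*. With no integration it was -4.14 (set 2) and -5.93 (set 3) for *Igf1*, -3.30 (set 2) for *Igfbp2*, -2.56 and -1.30 for *Igfbp5*, and -3.48 and -4.63 for *Igfbp7*. With at least 1000 genes a cell, set 2 gave -3.98 for *Igf1*, -0.29 for *Igf1r*, -3.23 for *Igfbp2*, -3.22 for *Igfbp5* and -3.41 for *Igfbp7*. At resolution 1.0 *Igfbp7* of set 3 was -5.39. The cause of these moves was not tested.

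For smooth muscle-like over fibroblast-like cells the sign changed for *Irs2* of set 1 (0.84 from 5 and 17 UMIs, thinned), *Igfbp7* of set 1 (-0.01 at resolution 1.0 and -0.70 thinned) and *Igf1r* of set 2 (-0.08 with no integration), while 26 values moved and 59 did not. For endothelium-like cells 12 moved, 71 did not and 0 changed sign. *Irs1* rested on 13 to 81 UMIs in epithelium-like and fibroblast-like cells of a set.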
